A study of Canis lupus familiaris with 26 samples.

Results

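The data described here are the corpora lutea of control bitches, compared between the early luteal phase (days 5 and 10 after ovulation) and the mature luteal phase (days 20 and 30). They are 13 of the 26 RNA-Seq samples of the series and were chosen from these by their labels alone: 7 early samples (4 of day 5 and 3 of day 10) and 6 mature samples (3 of day 20 and 3 of day 30), with every gene in the count files. Before this, the authors had removed a control of day 10 and a control of day 30 as outliers in expression, which by their account made the groups more homogeneous. The spread and separation given below are those after this removal, and its effect was not tested. The animals were bitches of mixed breed and differing ages in a spontaneous cycle, with ovulation dated by the rise of circulating progesterone. Control animals received a placebo by mouth according to the treatment label, whereas the design text calls them untreated. The other 13 bitches received firocoxib, an inhibitor of cyclooxygenase 2, at 10 mg/kg daily from ovulation to the same days. They are used here as a second set of samples for the same contrast, and in fits of all 26 samples that include a stage by treatment test. Each library was made from the poly(A) RNA of luteal tissue trimmed from 1 animal, without cell sorting. Therefore, a lower level can mean fewer cells of a type or less RNA per cell, which cannot be told apart.

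The corpus luteum is a transient gland that forms from the ovulated follicle and makes progesterone. While it forms, follicle-derived cells stop dividing and enlarge into steroid-producing luteal cells, capillaries grow in, and fibroblasts and immune cells remodel the matrix. In the dog it is the only source of progesterone, and it builds up in much the same way in pregnant and non-pregnant cycles.

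Total counts ran from 12831896 to 22658950 reads in early and from 15955286 to 20156161 reads in mature samples, and the difference between their means did not pass the test (exact two-sided permutation test, p = 0.631, adjusted p = 0.841 over 4 library measures). More genes had at least 1 read in early than in mature libraries, 15434 ± 175 (SD, n = 7) against 15056 ± 125 (SD, n = 6), a difference of 378 genes (exact permutation test, p = 0.00175, adjusted p = 0.00699). Over the genes that passed the filter for testing, mature minus early was -46.5 genes (adjusted p = 0.0303, exact permutation test). The share of reads on the 10 most counted genes was 17.6% ± 3.21 in early and 20.3% ± 2.62 in mature samples (exact permutation test, adjusted p = 0.258). As for the tissue label, the luteal markers LHCGR (luteinizing hormone receptor), PRLR (prolactin receptor) and FDX1 (the electron donor of mitochondrial steroid synthesis) were read in every library. FDX1 alone had 846 to 1450 CPM (read counts scaled to a common library size with TMM factors) in early and 1035 to 1601 CPM in mature samples, and none of the 3 was called between the stages.

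A gene was tested when the early or the mature libraries averaged 10 reads or more, which left 13503 of 19856 genes. Of these 2774 were called, or 20.5%. A call required P under 0.01 and FDR under 0.1, where FDR here and below is the Benjamini-Hochberg adjusted P of the quasi-likelihood test in edgeR. Genes that rose (1369, 10.1%) and fell (1405, 10.4%) were nearly equal in number, but over all called genes the falls were deeper. This did not hold in every class of abundance, as given below. At least 2-fold changes were found for 498 of the genes that rose (36.4%) and for 910 of those that fell (64.8%), and the median log2 fold change was 0.81 among the former and -1.23 among the latter, against 0.02 over all genes tested. In 452 rising and 356 falling genes, no mature sample overlapped with any early sample, where 6.09% of all genes tested, called or not, separated the stages in this way. The first principal component of the 2000 most variable genes held 42.6% of their variance and placed all early samples on one side and all mature samples on the other. The second (15.9%) was set by day 5 replicate 3 and day 30 replicate 2, which lay at opposite ends. Without day 30 replicate 2, 4133 genes were called, with 2329 lower in mature samples, and without day 5 replicate 3 the count was 3139. When all 26 samples shared one estimate of the spread, the same contrast called 1570 genes, 590 higher and 980 lower.

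**Figure D1:**
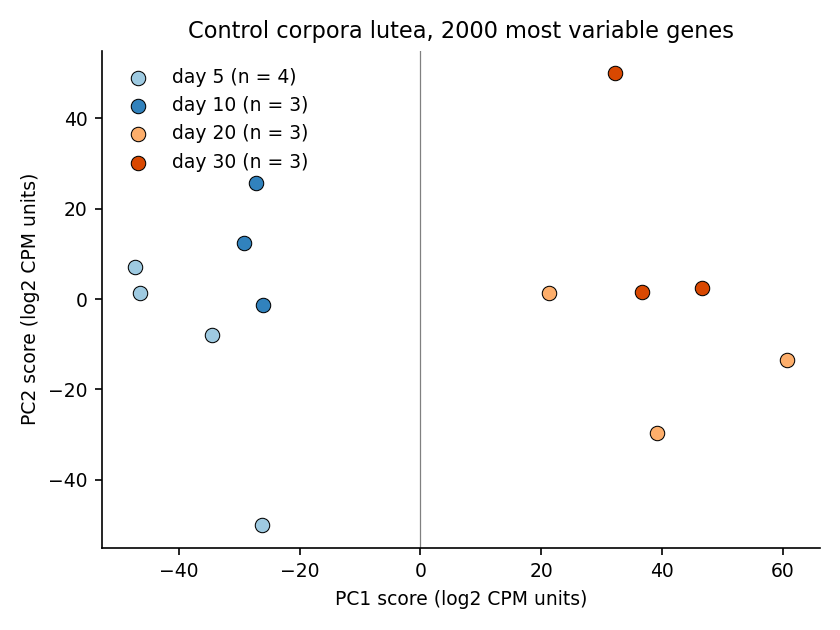
First and second principal component scores (log2 CPM units) of the 13 control samples over the 2000 most variable genes, 1 point per sample coloured by day. All early samples lie left of 0 and all mature samples right of 0, and day 5 replicate 3 at the bottom and day 30 replicate 2 at the top lie apart from the rest.

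Of the 3 steps between sampling days, calls were made for the middle one. No gene was called between days 5 and 10 or between days 20 and 30, where 913 and 1172 genes had an unadjusted P under 0.05, while 827 genes were higher and 642 lower on day 20 than on day 10 (10.9% of the genes tested, both directions). Testing both within-stage steps together also called no gene by edgeR (1085 at an unadjusted P under 0.05), whereas the likelihood ratio test of DESeq2 called 150. The smallest P values in the edgeR test among genes with a symbol belonged to RNF213, a ubiquitin ligase, COL12A1, a fibril-associated collagen, and MEDAG, each with an FDR above the threshold. These day groups hold 3 or 4 samples each, against 7 and 6 in the stages.

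Genes that rose and genes that fell were unevenly spread over classes of abundance, which were compared without a test. Classes were set on the mean CPM over all 13 samples, which is a count of reads, not divided by gene length. Among genes under 1 CPM, 47 rose and 156 fell, so that 23.2% of the called genes were higher in mature samples, and at 1 to 10 CPM 233 rose and 513 fell (31.2%). The balance turned at middle levels: 774 rose and 514 fell at 10 to 100 CPM (60.1%), and 303 rose and 197 fell at 100 to 1000 CPM (60.6%). At 1000 CPM or more it turned again, with 12 risers and 25 fallers (32.4%). The share of tested genes that was called was 21.3, 19.1, 18.7, 29.9 and 37.4% from the lowest to the highest class. Here the class with the fewest reads had a median standard error of 0.55 on the log2 scale against 0.20 at 10 to 100 CPM, and the median change of its called genes was 2.31 upward and -2.32 downward, against 0.72 and -0.92 at 10 to 100 CPM. At 1000 CPM or more the median change of called genes was 1.31 upward and -0.99 downward. All called genes under 1 CPM, 47 up and 156 down, changed at least 2-fold. The tested genes of that class had a median of 12.2 reads, against a filter of 10 reads in either stage. A gene there could pass through its higher stage alone, so the filter shapes both its split and its median changes. Without day 30 replicate 2 the share of risers was 22.7% at 1 to 10 CPM and 51.4% at 10 to 100 CPM. The balance within a class depends on its definition, since a class set on the early samples alone gathers genes that rose from low levels. Set on the early samples, the share of risers was 58.2% under 1 CPM and 46.8% at 100 to 1000 CPM, each on the other side of an even split, and set on the mature samples it was 69.0% at 1000 CPM or more.

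**Figure D2:**
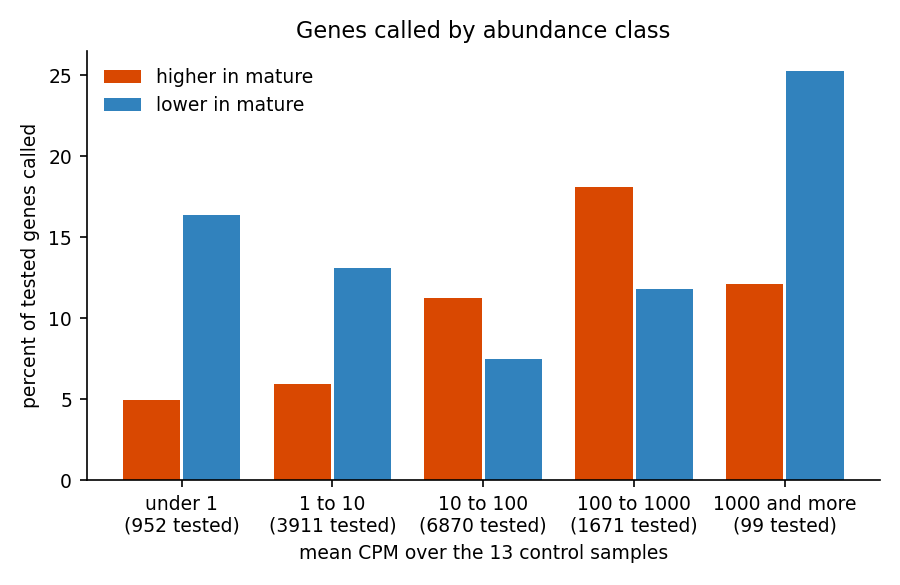
Percent of tested genes called higher (orange) or lower (blue) in mature than in early control samples, by class of mean CPM over the 13 samples. Lower genes outnumber higher ones under 10 CPM and at 1000 CPM or more, and higher genes outnumber lower ones from 10 to 1000 CPM.

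Genes called higher held 8.01 to 9.06% of all reads in early samples and 14.1 to 18.8% in mature samples, and genes called lower held 16.3 to 22.0% and 5.47 to 9.29%. Since those genes were chosen for this change, the shares are a description of its size. Among the 10 genes with a symbol that took the most reads, the mitochondrially encoded ATP6 had 17377 ± 5550 CPM (mean ± SD here and below) in 7 early and 30297 ± 10425 CPM in 6 mature samples (FDR = 0.0687, not called at P under 0.01). The translation elongation factor EEF1A1 had 6404 ± 1360 and 5659 ± 801 CPM, and the lipoprotein receptor LRP8 had 4484 ± 1112 and 4794 ± 1770 CPM, and neither was called. Among the other mitochondrial transcripts of this rank, MT-CO2 and MT-ND4 had fitted log2 fold changes of 0.60 (SE 0.30) and 0.58 (SE 0.35), CYTB of 0.75 (SE 0.31) and MT-ATP8 of 0.64 (SE 0.29), and none was called. The metalloproteinase inhibitor TIMP1 (9037 ± 2263 to 1317 ± 1278 CPM) and the collagen chain COL1A2 (4554 ± 2250 to 2124 ± 742 CPM) fell, and the call of COL1A2 was lost in 6 of the 13 fits that each left out 1 sample. IGFBP7, a secreted binding protein of insulin-like growth factors, fell from 5656 ± 1757 to 2854 ± 639.7 CPM (FDR = 0.0125).

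Most genes described below by class or by size of change were chosen for a small P (leaving out the study's own representative genes) or a large change among genes whose stages did not overlap, so that their lack of overlap was set by the choice. The 2 risers with the most reads in mature samples were genes known as products of other organs. Albumin (ALB, ENSCAFG00000003016), the main plasma protein made by the liver, had 27.3 CPM in the lowest, 66.2 in the median and 747 in the highest early sample, and 2415, 3068 and 4951 CPM in mature samples. The early level varied widely, with the highest value in day 5 replicate 3. The log2 fold change was 4.08 (SE 0.70, FDR = 0.00175). KLK2 (ENSCAFG00000002907, annotated as arginine esterase, a kallikrein-related protease that is abundant in the secretion of the dog prostate) went from 0.267 to 201 CPM in early samples (median 6.54) to 3747 to 13062 CPM in mature samples (median 5785). In detail, 3 of the 4 day 5 samples were under 1 CPM, the day 10 samples lay between 6.54 and 201 CPM, and the log2 fold change was 7.51 (SE 1.46, FDR = 0.00345). The related KLK1 (kallikrein 1), added after its value was seen, rose as well, from 21.4 ± 15.7 to 511 ± 536 CPM (log2 fold change 4.58, SE 0.70), and since kallikreins are similar in sequence, reads may be divided between them with error. Other genes of plasma proteins, picked after their values were seen, went both ways. The coagulation factor F11 (0.579 ± 0.311 to 2.88 ± 1.77 CPM) and heparin cofactor SERPIND1 (1.26 ± 0.485 to 2.49 ± 0.972 CPM) rose, while apolipoprotein H (APOH, 24.1 ± 13.1 to 3.88 ± 1.52 CPM), the haem carrier HPX (5.70 ± 1.77 to 1.53 ± 0.882 CPM), the ferroxidase CP (436 ± 454 to 124 ± 49.7 CPM) and the thyroxine carrier SERPINA7 (114 ± 73.3 to 8.39 ± 9.75 CPM) fell. The calls of SERPIND1 and CP were lost in 11 and 8 of the 13 fits that each left out 1 sample.

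Other risers of this class included genes of lipid supply and luteal regulation. Stearoyl-CoA desaturase (SCD, ENSCAFG00000009663), which makes monounsaturated fatty acids, had 838 to 1575 CPM in early (median 1063) and 1824 to 2983 CPM in mature samples (median 2452; log2 fold change 1.09, SE 0.18, FDR = 0.00131). PTGFR (ENSCAFG00000020345), the receptor of the luteolytic prostaglandin F2 alpha, had 347 to 1069 CPM in early (median 742) and 1219 to 2957 CPM in mature samples (median 2065; log2 fold change 1.52, SE 0.28, FDR = 0.00282). For PTGFR the lowest mature sample, day 30 replicate 2, was just above the highest early sample. ACLY, which makes cytosolic acetyl-CoA from citrate, rose from 532 ± 144 to 1948 ± 785 CPM.

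The genes of this class that fell included enzymes of energy metabolism, complement, matrix and ribosomal proteins. Triosephosphate isomerase (TPI1, ENSCAFG00000014553), a glycolytic enzyme, had 1322 to 3022 CPM in early (median 2077) and 554 to 1081 CPM in mature samples (median 894; log2 fold change -1.33, SE 0.23, FDR = 0.00176). HADH (ENSCAFG00000011216), a dehydrogenase of mitochondrial fatty acid oxidation, had 1385 to 3489 CPM in early (median 1782) and 373 to 1007 CPM in mature samples (median 649; log2 fold change -1.55, SE 0.27, FDR = 0.00197). Complement C3 (ENSCAFG00000018625) had 1328 to 6511 CPM in early (median 2856) and 263 to 1214 CPM in mature samples (median 435; log2 fold change -2.47, SE 0.42, FDR = 0.00179). The highest mature sample of TPI1 and of C3 was day 20 replicate 3.

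At 100 to 1000 CPM the risers chosen included ARHGAP21 and VWA5A (ENSCAFG00000011356). VWA5A had 33.9 to 63.6 CPM in early (median 48.6) and 231 to 1189 CPM in mature samples (median 479.8; log2 fold change 3.56, SE 0.36, FDR = 0.000102). It was highest in day 20 replicate 1 and day 30 replicate 2, and these 2 samples were also the highest for the largest rise by fold among genes with a symbol and at least 1 CPM, that of tenascin N (TNN, ENSCAFG00000014353), a glycoprotein of the extracellular matrix. TNN had 1.72 to 7.52 CPM in early samples (median 3.85) and 54.5 to 3176 CPM in mature samples (median 281; log2 fold change 7.56, SE 0.95, FDR = 0.000305). The same 2 samples were highest for SV2B, a glycoprotein of secretory vesicles (1.69 ± 1.86 to 114 ± 108 CPM), and for SLC27A2, an acyl-CoA synthetase of very long chain fatty acids (1.39 ± 1.40 to 90.9 ± 67.8 CPM), with log2 fold changes of 6.12 (SE 0.88) and 6.04 (SE 0.74). The lead of TNN over KLK2 was narrow. Without single samples the log2 fold change ranged from 6.34 to 7.81 for TNN and from 7.20 to 9.36 for KLK2.

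The 3 falling genes chosen in this class were GFPT2, VCAN and ITIH4. GFPT2 (ENSCAFG00000000433), an entry enzyme of the hexosamine pathway, had 403 to 2575 CPM in early (median 1414) and 129.8 to 292 CPM in mature samples (median 176; log2 fold change -2.91, SE 0.38, FDR = 0.000372). The hyaluronan-binding proteoglycan versican (VCAN) had 489 ± 212 and 48.4 ± 26.2 CPM (log2 fold change -3.34, SE 0.45). ITIH4, a heavy chain of the inter-alpha-trypsin inhibitor family, had 776 ± 540.3 and 31.3 ± 24.6 CPM (log2 fold change -4.63, SE 0.64). Day 10 replicate 2 was the lowest early sample for all of them.

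**Figure D3:**
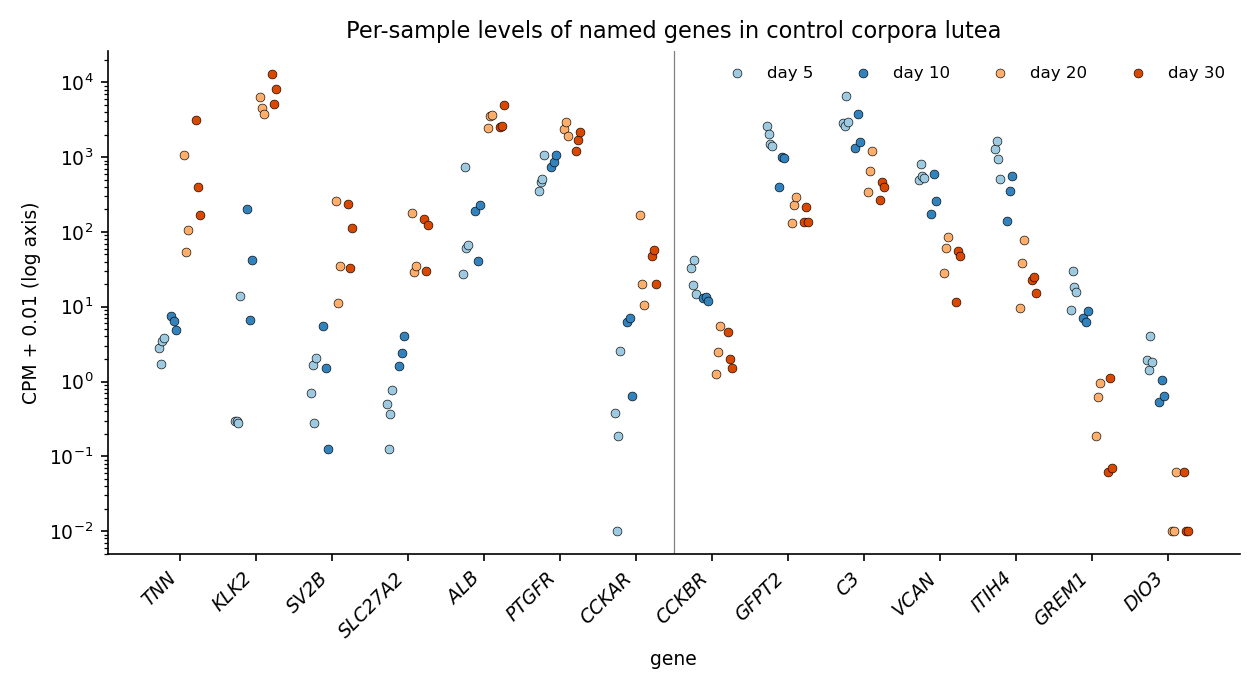
Level of 14 genes (CPM + 0.01, log axis) in each of the 13 control samples, 1 point per sample coloured by day, with genes that rose left of the line and genes that fell right of it. The genes were chosen among those whose stages do not overlap, and TNN, SV2B and SLC27A2 spread widely among the mature samples.

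At 10 to 100 CPM the risers chosen were ZNF365, MAPRE3, which binds growing microtubule ends (28.1 ± 6.56 to 83.4 ± 13.4 CPM), and DLAT, a subunit of pyruvate dehydrogenase (35.9 ± 5.40 to 86.5 ± 14.0 CPM). The fallers chosen were the cell cycle inhibitor CDKN2C, ADM5 and the protease CTSH. At 1 to 10 CPM, PRKG2, the type II cGMP-dependent protein kinase, had at most 0.451 CPM in early and 2.30 to 23.3 CPM in mature samples. GNAL, a stimulatory G protein subunit first known from olfactory neurons, rose from 1.11 ± 0.164 to 4.19 ± 0.935 CPM, and the sialyltransferase ST6GAL2 from 1.11 ± 0.326 to 5.45 ± 2.08 CPM. In the same class CMTM3 fell from 5.40 ± 1.84 to 1.44 ± 0.223 CPM, the lymphocyte kinase BLK from 2.05 ± 1.06 to 0.147 ± 0.0876 CPM, and PTGER4, a receptor of prostaglandin E2, from 10.4 ± 1.57 to 3.80 ± 0.954 CPM.

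Under 1 CPM, LYG1 (a lysozyme-like protein), SYCE3 (a part of the meiotic synaptonemal complex) and SHCBP1L rose from means of 0.0532, 0.0725 and 0.0955 CPM to 1.35, 1.40 and 1.5 CPM. DIO3, the deiodinase that inactivates thyroid hormones, had 0.526 to 4.05 CPM in early samples and was read in 2 of 6 mature samples. It had 237 reads over the early and 2 over the mature libraries, a 91.5-fold difference with a 95% counting interval of 25.1 to 760.4. The acute-phase protein serum amyloid A (SAA1) had 571 and 3 reads (147-fold, 50.1 to 715), and secreted phosphoprotein SPP2 had 187 and 3 reads (48.2-fold, 16.2 to 236). These exact intervals cover counting error only. SAA1 had the deepest fall among the genes with a symbol. In ENSCAFG00000013306, which has no symbol here, 450 early reads faced none in mature samples, at least 116-fold lower against a floor of 3 reads over the group. ENSCAFG00000031333 went the other way, with 1 early and 465 mature reads (602-fold, 107 to 23824). The centromere protein CENPA fell from 1.11 ± 0.220 to 0.193 ± 0.0504 CPM. SAA1, ENSCAFG00000013306 and ENSCAFG00000031333 averaged 1 to 10 CPM over all samples. In that class the bone morphogenetic protein (BMP) antagonist GREM1 fell from 13.7 ± 8.66 to 0.490 ± 0.462 CPM and ANKRD1 from 3.83 ± 2.34 to 0.150 ± 0.283 CPM.

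For functions, only genes with a symbol could be placed in a list: 4269 of the genes tested, of which 2451 were called, 1242 higher and 1209 lower (50.7% higher). Because these symbols come from tables made mostly of genes that the study called, the number of members called says little, and the split between directions is what the lists describe. Listed genes without a symbol there are missing from the counts and from the medians. A member with a value is one that had a symbol and was tested. A value given with SE alone is a log2 fold change, mature over early. Of 23 steroidogenic enzymes listed, 10 had a symbol and 9 were tested. Of these 9, 8 rose and 1 fell, the latter being HSD17B1, which reduces estrone to estradiol (2.25 ± 3.15 to 0.222 ± 0.129 CPM, not called by limma voom). Among the risers were HSD17B6 (log2 fold change 1.15, SE 0.20), HSD17B7, which also acts in cholesterol synthesis (1.19, SE 0.27), and HSD17B13 (0.76, SE 0.22). The tested members had a median log2 fold change of 0.87.

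Genes of fatty acid and glycerolipid synthesis rose 15 to 1, with 7 of 23 not called and a median log2 fold change of 0.72, and cholesterol synthesis genes rose 11 of 13 with no faller. The fatty acid elongase ELOVL5 had 52.9 to 108 CPM in early (median 78.0) and 172 to 346 CPM in mature samples (median 239), without overlap (log2 fold change 1.72, SE 0.20, FDR = 0.000179). LPIN1, the phosphatidate phosphatase lipin 1, rose from 23.2 ± 4.31 to 83.5 ± 23.1 CPM (FDR = 0.000110), and GPAT4, which starts glycerolipid synthesis, from 123 ± 12.2 to 205 ± 18.7 CPM. Fatty acid breakdown was split, with 5 risers and 2 fallers among 10 mitochondrial genes and 6 risers and no faller among 13 peroxisomal ones. The carnitine palmitoyltransferases CPT1A (log2 fold change 0.68, SE 0.15) and CPT2 (0.75, SE 0.13) and the isomerase ECI2 (0.96, SE 0.15) rose, while HADH and the electron transfer subunit ETFB fell (-1.41, SE 0.25). Of the peroxisomal genes, the lipid transporter ABCD3 had the smallest P (0.82, SE 0.19).

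Isoenzymes of glycolysis moved in opposite directions. Hexokinase HK1 rose from 388 ± 66.8 to 660.0 ± 95.4 CPM while HK2 fell from 3.47 ± 1.55 to 0.959 ± 0.424 CPM. Of the kinases that set fructose 2,6-bisphosphate, PFKFB2 rose from 57.5 ± 4.00 to 117 ± 19.2 CPM and PFKFB3 fell from 56.0 ± 13.8 to 23.9 ± 6.42 CPM (FDR = 0.000217 and 0.00177). Antioxidant enzymes also split, with 5 risers and 6 fallers among 15. Secreted glutathione peroxidase GPX3 had 63.9 to 328 CPM in early (median 159.7) and 902 to 1968 CPM in mature samples (median 1447; log2 fold change 3.07, SE 0.35, FDR = 0.000179), whereas thioredoxin TXN (-1.76, SE 0.30) and peroxiredoxin PRDX2 (-1.33, SE 0.29) fell. The stages did not overlap for GPX3, and its highest early sample was far under its lowest mature one.

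The receptors of cholecystokinin, which were singled out after their values were seen, moved in opposite directions: CCKAR had 0 to 7.03 CPM in early and 10.5 to 166 CPM in mature samples (log2 fold change 4.48, SE 0.95, FDR = 0.00576), and CCKBR had 12.1 to 41.9 and 1.24 to 5.59 CPM (-2.86, SE 0.43, FDR = 0.000845). Neither receptor overlapped between the stages. In the list of cAMP and cGMP signalling 9 of 23 genes rose and 2 fell. The phosphodiesterases PDE1C (1.40, SE 0.23) and PDE2A (1.06, SE 0.24) and the natriuretic peptide receptors NPR3 (3.26, SE 0.53) and NPR1 (0.74, SE 0.22) rose on the log2 scale. The adenylyl cyclases ADCY2 (-1.17, SE 0.29) and ADCY5 (-1.14, SE 0.28) fell. Of 14 hormone receptors 6 rose and 2 fell, with the progesterone-binding membrane component PGRMC1 (0.79, SE 0.15) and the glucocorticoid receptor NR3C1 (0.70, SE 0.15) among the former. The shares called, 11 of 23 and 8 of 14, lie near or under that of all tested genes with a symbol, 2451 of 4269.

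Prostaglandin synthesis fell without exception among the called genes, 5 of 7. PTGS2 (cyclooxygenase 2, the target of firocoxib) had 57.9 to 328 CPM in early (median 154) and 2.96 to 53.8 CPM in mature samples (median 12.3), with a log2 fold change of -3.19 (SE 0.59, FDR = 0.00284). The stages separated by a narrow margin, since day 20 replicate 2 was close to the lowest early sample. The synthases of prostacyclin (PTGIS, -2.53, SE 0.35) and prostaglandin E2 (PTGES, -1.63, SE 0.27) fell as well, while HPGD, which inactivates prostaglandins, rose from 5.81 ± 4.23 to 41.4 ± 30.1 CPM.

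For the TGF-beta and insulin-like growth factor systems, every call on a ligand or an extracellular binding protein or inhibitor was a fall. In the TGF-beta family 4 of 10 ligands and 5 of 8 extracellular inhibitors fell and none rose, while all 3 SMAD transducers with a value rose. The activin and BMP antagonists FSTL3 (33.8 ± 17.8 to 2.71 ± 1.73 CPM) and CHRDL2 (3.45 ± 2.58 to 0.273 ± 0.430 CPM), BMP4 (-1.21, SE 0.25) and inhibin alpha (INHA, -1.62, SE 0.48) were among the fallers, and SMAD2 rose (0.87, SE 0.18). Of 8 ligands and binding proteins of the insulin-like growth factor axis 6 fell and none rose, such as IGFBP2 (-3.41, SE 0.59), IGFBP3 (-2.75, SE 0.50) and IGFBP4 (-1.84, SE 0.33). Retinoid metabolism had 5 fallers and 1 riser among 7 genes, with the retinoic acid-forming ALDH1A2 (-1.23, SE 0.39) and the retinal reductase DHRS3 (-1.52, SE 0.38) lower and the retinol dehydrogenase RDH11 (0.99, SE 0.20) higher. The call of ALDH1A2 was lost in 7 of the 13 fits that each left out 1 sample. Complement had 10 fallers and 1 riser among 12, and coagulation and fibrinolysis 9 and 2 among 15. C6 of the membrane attack complex had 687 ± 197 and 277 ± 81.2 CPM, and the protease inhibitor SERPINE2 had 717 ± 277 and 204 ± 86.5 CPM. The exceptions were the lectin pathway protease MASP1 (1.81 ± 1.87 to 27.9 ± 52.4 CPM, carried in part by 135 CPM in day 20 replicate 1), F8 (1.76, SE 0.41) and F11 (2.31, SE 0.47).

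Outside metabolism, several lists held more risers than fallers, beside members that were not called. Of 15 genes of vesicle release 9 rose and 2 fell: besides SV2B these were the calcium-dependent secretion activator CADPS (37.8 ± 11.4 to 174 ± 84.6 CPM), SV2A (1.09, SE 0.22) and others, whereas chromogranin A (CHGA), a granule protein in the list of prohormone processing, fell (-0.80, SE 0.22). Of 16 genes of the primary cilium 10 rose and none fell, for example BBS2 (0.65, SE 0.12) and IFT122 (0.87, SE 0.16), and of 9 dyneins, the minus-end microtubule motors, 7 rose and none fell, among them DYNC1I1 (0.98, SE 0.15) and the axonemal DNAH6 (1.81, SE 0.34) and DNAH5 (1.87, SE 0.41). Histone lysine methyltransferases and demethylases rose 9 of 11, led by SETD7 (20.3 ± 3.83 to 64.1 ± 37.4 CPM), KDM4C (0.61, SE 0.12) and KDM6A (0.62, SE 0.13), again with no faller. Ubiquitin-specific proteases rose 7 of 9, with USP13 first (1.06, SE 0.15), and F-box, cullin and kelch-like proteins 12 to 3 of 25. Zinc finger genes of the ZNF series had 17 risers and 3 fallers among 50.

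Other lists held mostly genes that fell. All but 1 of 19 mitosis genes fell and none rose, with a median log2 fold change of -1.39, including CDC20 (8.82 ± 2.96 to 1.89 ± 0.946 CPM) and UBE2C (-1.92, SE 0.31), which drive the exit from mitosis. DNA replication had 13 fallers and 1 riser among 24, with thymidine kinase TK1 (-2.51, SE 0.42) and the helicase subunit MCM2 (-1.24, SE 0.29) among the former. Matrix genes shared the direction, with 13 of 18 collagens lower and none higher and with 15 lower and 1 higher among 21 metalloproteinases and their inhibitors. Proteasome subunits fell 8 of 9, PSMB9 of the immunoproteasome first (-0.85, SE 0.15). Cytosolic ribosomal protein genes fell 46 of 56 and none rose, with a median of -0.87. RPL31, for example, had 141 to 249 CPM in early (median 184) and 92.8 to 144 CPM in mature samples (median 104), where day 20 replicate 2 overlapped with the early samples. Ribosomal protein genes have many processed copies in the genome, and some of their reads may be assigned to the wrong copy. Potassium channels were more evenly split, with 9 fallers, 5 risers and 4 not called of 18. KCNH2 (1.95, SE 0.44) and KCNA2 (2.38, SE 0.50) were among the risers, and KCNH2 ranged from 1.25 to 2.14 without single samples.

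**Figure D4:**
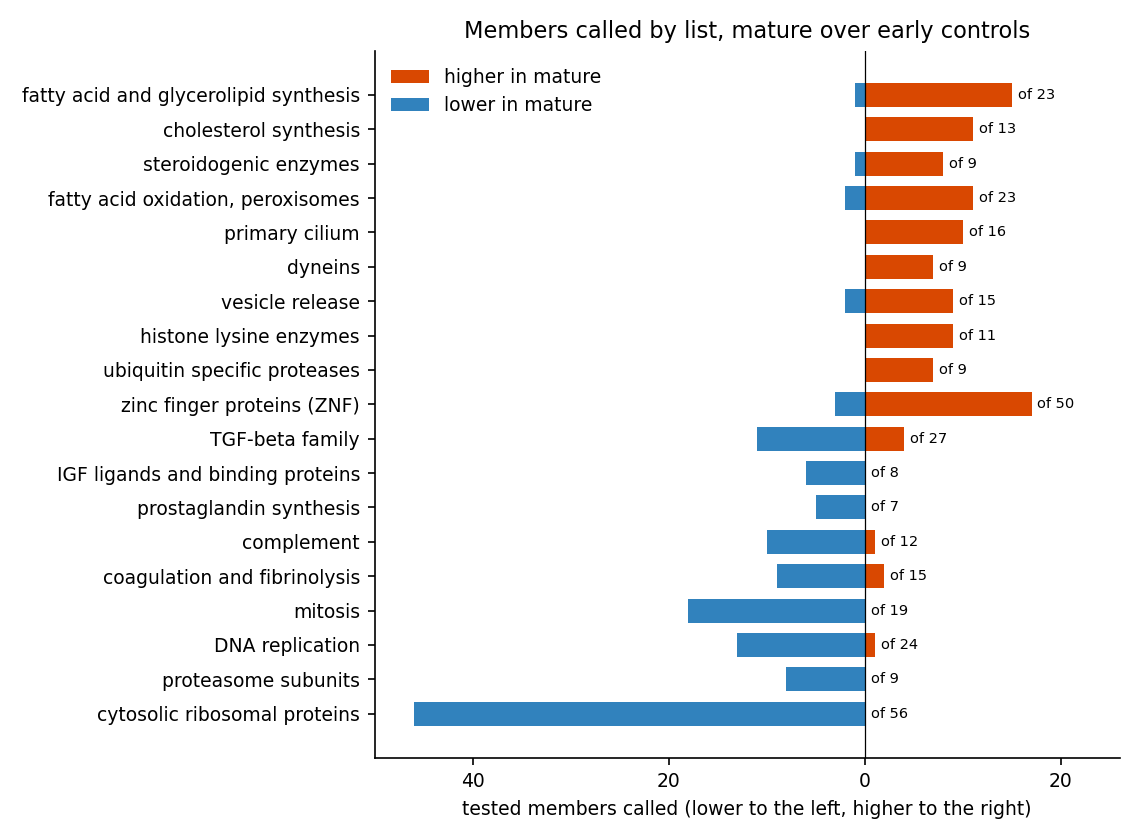
Number of members called higher (orange, to the right) and lower (blue, to the left) in mature than in early control samples for 19 gene lists, with the number of members tested. Histone lysine enzymes, dyneins and the primary cilium have no member that fell, and ribosomal proteins, mitosis and proteasome subunits have none that rose.

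Markers of other cell types moved with stage, and their part in the changes above was not tested. Of 12 macrophage markers listed, the 6 with a value (TYROBP, AIF1, FCER1G, MSR1, CD68 and C1QA) all fell. Their summed level was 92.6 to 314 CPM in early (median 137) and 33.4 to 103 CPM in mature samples (median 49.1), with C1QA the most abundant. The calls of C1QA, CD68 and MSR1 were lost in 9, 8 and 5 of the 13 fits that each left out 1 sample. Of 9 fibroblast markers 8 fell, from a sum of 6638 to 21567 CPM (median 15122) to 2894 to 7296 CPM (median 4781), led by COL1A2. By day, the sum was 15122 to 21567 CPM on day 5, 6638 to 7513 CPM on day 10 and 2894 to 7296 CPM on days 20 and 30, so that the highest values were those of day 5. COL1A2 averaged 6135 CPM on day 5 and 2446 CPM on day 10. In both lists the sums overlapped between stages. Of 6 endothelial markers 3 were called higher (KDR, CDH5 and EMCN), and PLVAP, VWF and PECAM1 were not called. The log2 fold changes of the 6 ran from -1.43 to 1.02, with 4 above 0. Their sum was 586 to 1464 CPM in early (median 1033) and 992 to 1944 CPM in mature samples (median 1394), and KDR was the most abundant. Its fellow vascular endothelial growth factor receptor FLT1 rose from 41.8 ± 19.8 to 110.3 ± 38.6 CPM. The 2 B cell markers with a value, BLK and CD22, fell from a sum of 4.21 to 8.20 CPM to 0.362 to 2.25 CPM, without overlap. The 6 pericyte and smooth muscle markers summed to 363 to 555 CPM and 377 to 515 CPM, and DES and TAGLN fell. Of 4 granulosa cell markers 2 fell (INHA and SERPINE2), while FSHR, the most abundant, and INHBB were not called. The 4 summed to 1513 to 2931 CPM in early and 1689 to 2607 CPM in mature samples. Of 3 adipocyte markers 2 rose (LEP and CIDEC, the latter not called in 8 of the 13 fits that each left out 1 sample), and none of the 2 T cell and 2 epithelial markers was called. The 1 erythrocyte marker with a value fell, from 0 to 4.53 CPM in early to 0 to 0.307 CPM in mature samples. Of 3 neutrophil and mast cell markers 1 rose and none fell. None of the members of these lists was at 0 in all libraries of a stage. Oocyte markers varied among the early libraries: the 7 genes with a value summed to 102 CPM in day 5 replicate 1, 112 in day 10 replicate 2 and 122 in day 10 replicate 3, and to 4.17 to 28.2 CPM in the other 4 early and 4.73 to 24.5 CPM in the mature samples. Of the 3 oocyte markers called lower, ZP3 and GDF9 were also highest in these 3 libraries, and their calls were lost in 5 and 7 of the 13 fits that each left out 1 sample. Chemokines and their receptors fell 12 to 4 of 18, and the exceptions were CXCR4 (1.95, SE 0.25), CXCL14 (1.80, SE 0.33), CX3CR1 (0.92, SE 0.29) and CXCL8 (3.19, SE 1.0). The calls of CX3CR1 and CXCL8 were lost in 7 and 8 of those fits.

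In firocoxib-treated bitches, which share no sample with the controls, the same contrast called 1877 of 13865 genes (13.5%), 679 higher and 1198 lower, in a fit of all 26 samples. A separate fit of all 26 samples, over the 13503 genes of the control comparison, called 1570 in controls. Of the genes called in controls, 1219 of 1369 risers and 1208 of 1405 fallers had a log2 fold change of the same sign. In the treated samples 298 of these risers and 588 of these fallers were also called in the same direction, and 1 riser and 12 fallers in the opposite one. Those risers and fallers had, in treated bitches, median log2 fold changes of 0.50 and -0.90 against -0.02 over all 13865 genes of the fit that gave the treated values. No gene was called for a difference between the changes (stage by treatment interaction, edgeR, 1016 at an unadjusted P under 0.05), whereas DESeq2 called 155. The smallest P among genes with a symbol belonged to C6orf52, the oocyte gene ZAR1 and GLT8D2 (FDR of 0.113 for each). Some large changes were also called in treated bitches, as in TNN (7.74 on the log2 scale, FDR = 0.000771), KLK2 (7.28, FDR = 0.00887), ALB (4.47, FDR = 0.00982) and ITIH4 (-5.55, FDR = 0.000145). Their treated mature samples spread down to early levels in TNN (12.8 to 15748 CPM, early 0.399 to 53.2), KLK2 (16.04 to 15515 CPM, early 0 to 357) and ALB (4.59 to 13108 CPM, early 19.2 to 459). Other genes named above were not called there: the log2 fold change was -0.91 for SAA1 (FDR = 0.523), 0.30 for BLK (FDR = 0.797), -1.62 for SPP2 (FDR = 0.196), -1.54 for VCAN (FDR = 0.165) and 0.05 for SCD (FDR = 0.932).

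The values of the lists are given side by side, and no list was tested for a difference. Members called in controls were chosen on the control change, so that a smaller change tends to be found in other samples, and the values are set against the medians of 0.50 and -0.90 above. The 18 mitosis genes had a median of -1.41 in controls and -1.33 in treated bitches, the 9 histone lysine enzymes 0.62 and 0.66, and the 7 dyneins 1.13 and 1.29. By contrast, the 46 ribosomal protein genes went from -0.90 to 0.04, the 11 cholesterol synthesis genes from 1.15 to -0.32, and the 16 genes of fatty acid and glycerolipid synthesis from 0.80 to 0.10. The 16 called chemokines and receptors went from -1.82 to 0.38, and 9 of them had an unadjusted interaction P under 0.05. In the fatty acid list ACLY had 1.87 in controls and -0.17 in treated bitches (interaction -2.05, SE 0.62, FDR = 0.288), and among ribosomal genes RPL31 had -0.80 and 0.12 (interaction 0.91, SE 0.29, FDR = 0.313). Of the 46 ribosomal genes 31 had an unadjusted interaction P under 0.05, against 390 of all 2774 genes called in controls. The lowest FDR was 0.173, and edgeR called none of these differences.

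**Figure D5:**
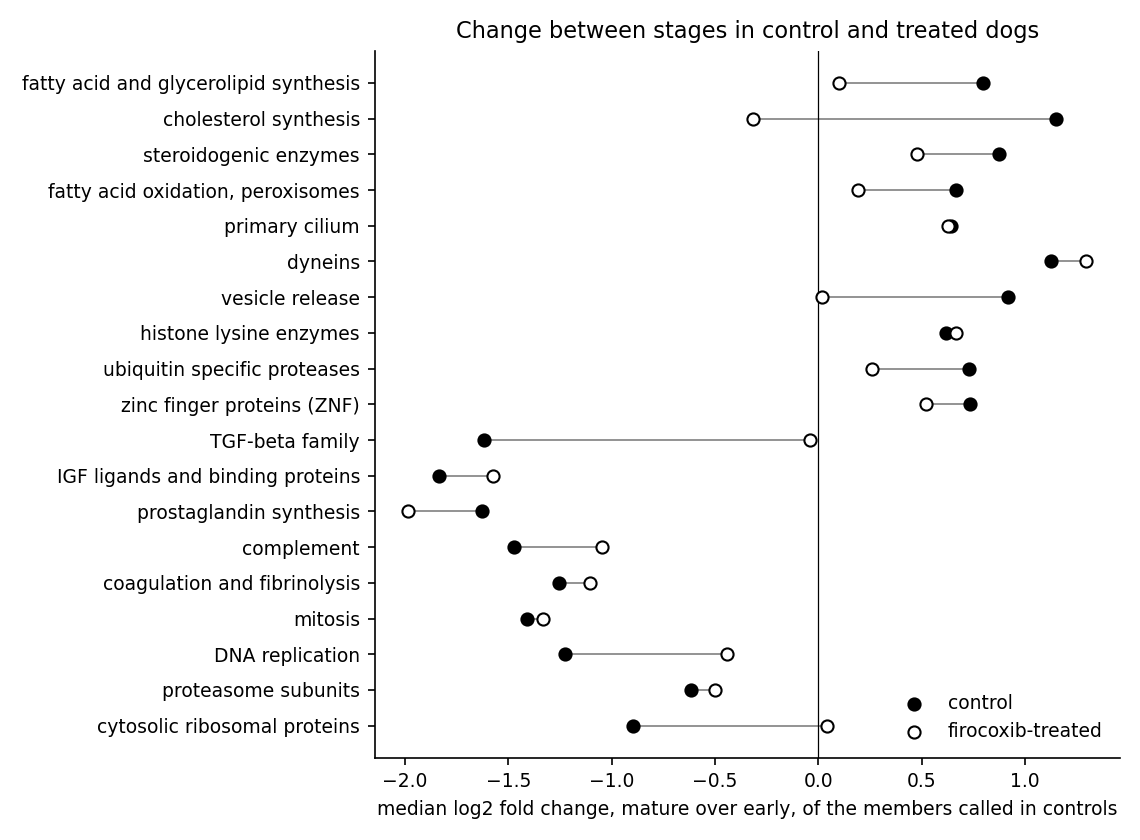
Median log2 fold change (mature over early) of the members of 19 lists that were called in controls, in control (filled) and firocoxib-treated (open) samples. Mitosis, dyneins and histone lysine enzymes lie close together, and ribosomal proteins and cholesterol synthesis lie far apart, with no gene called for the difference by edgeR.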

How the data were processed

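RNA-Seq libraries of poly(A) RNA (TruSeq v2, not stranded) from 26 corpora lutea were sequenced as single-end reads. Per the study's methods, the authors aligned them with STAR to the Ensembl build CanFam3.1 and counted reads per gene with featureCounts (versions not given in the sources used here). The deposited raw counts, 1 file per sample, were used here. The authors took 4 outlying samples out of the dataset, and these were not analysed here. Depth was 12831896 to 22658950 counted reads in the controls, and a gene at 0 in a group was given a floor of 3 reads.

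Counts were analysed in R 4.3.3 with edgeR 4.0.16 (TMM factors, quasi-likelihood test, Benjamini-Hochberg adjustment) over genes that averaged 10 reads or more in either stage, and called at P under 0.01 and FDR under 0.1. DESeq2 1.42.0, limma voom (3.58.1) and other settings were tried as alternatives, and the steps were tested on simulated data. P-values measure the spread between samples, which were single dogs. Coordinates and sequences were not used here.

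Symbols were taken from the study's supplementary gene tables (4347 of 19856 identifiers), which hold mostly genes it called. The members, lists and tests were chosen with earlier results of these data known. Named genes were, per abundance class and direction, the 3 called genes with the smallest P that had a symbol, separated the stages and are not among the study's representative genes, the 5 largest changes each way that separated them (at least 1 CPM), the 10 with most reads, the 3 with the smallest P for days within stages and for stage by treatment, and in each list up to 4 members with the smallest P. Further members were named after their values were seen. Some genes that meet this rule are not reported here.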

Additional observations from a re-analysis of the deposited data

Results flagged for a closer look

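In 15 of 312 groups of samples examined (the genes given by the naming rule, the others named in the report and 4 library measures, each in early and in mature controls), the highest or lowest sample stood farther from the others than Dixon's 95% limit allows (4.81%, where chance flags about 1 in 20). Among mature samples, day 20 replicate 2 stood apart in 4 genes. It had 0.724 CPM of ANKRD1 (others 0 to 0.0614), 1.15 CPM of CHRDL2 (others 0.0592 to 0.157), 144 CPM of RPL31 (others 92.8 to 108) and 11.1 CPM of NPR1 (others 16.5 to 20.1).

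Day 20 replicate 1 stood apart in 3 genes, with 135 CPM of MASP1 (others 3.68 to 10.3), 6.15 CPM of DNAH6 (others 1.77 to 2.4) and 18.5 CPM of CDKN2C (others 23.0 to 26.1). HK1 was highest in day 30 replicate 2 (841 CPM, others 579 to 663) and CXCR4 in day 30 replicate 4 (168 CPM, others 69.0 to 92.6). ZAR1 had its only mature read in day 30 replicate 3 (0.0614 CPM).

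Among early samples, day 5 replicate 3 had 21.6 CPM of DHRS3 (others 43.4 to 55.6) and 24.8 CPM of F8 (others 4.05 to 8.76). CTSH was highest in day 5 replicate 5 (90.1 CPM, others 41.3 to 57.6), SV2A in day 10 replicate 3 (26.1 CPM, others 11.8 to 15), and HK2 lowest in day 10 replicate 2 (0.677 CPM, others 2.93 to 5.44).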

How the results depend on the processing

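With DESeq2 3513 genes were called (1690 higher, 1823 lower), 2767 of them among the 2774 reported, and with limma voom 2844, of which 2498 were shared. Leaving out each of the 13 control samples gave 2166 to 4133 called genes (1122 to 1804 higher and 1025 to 2329 lower), and 1818 genes (65.5%) were called in every one of these fits. With all 26 samples in the fit 1570 were called, 590 of them higher. Size factors of DESeq2, other filters, an FDR under 0.05, a mean per day, or the 10 most counted genes left out kept the count within 1.5 times.

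The same replicate numbers recur in the day groups. The deviations of like-numbered samples from their group means had a mean r of -0.108 over 13 pairs (from -0.445 to 0.382), against 0.0268 for other pairs. With so few and so scattered pairs, these values cannot decide whether like-numbered samples share more than a number. With the number as a replicate block, 1806 genes were called (887 higher, 919 lower), and the days within stages and the interaction gave 0.

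Classes set on the early samples held 58.2% risers among called genes under 1 CPM, 46.8% at 100 to 1000 CPM and 8.11% at 1000 CPM or more. Set on the mature samples, the shares were 6.36, 72.1 and 69.0%. Without single samples they ranged from 20 to 28.9, 22.7 to 35.0, 51.4 to 64.2, 58.1 to 64.8 and 31.4 to 40% from the lowest to the highest class. For the days within stages DESeq2 called 150 genes against 0, and for the interaction 155 against 0. In the fits without 1 of 26 samples the interaction called 0 to 24 genes, with 24 without treated day 30 replicate 4, 22 without control day 5 replicate 3 and 11 without treated day 10 replicate 4.

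None of 32 list medians reversed under DESeq2, its size factors or the fits without a sample. Without single samples the median log2 fold change ranged from 0.36 to 0.68 for regulated secretion, 0.37 to 0.75 for cAMP and cGMP signalling, 0.34 to 0.44 for fatty acid oxidation and peroxisomes, -1.46 to -1.22 for prostaglandins, -1.19 to -0.66 for the TGF-beta family, 0.37 to 0.64 for ZNF genes and -1.83 to -1.45 for S100 proteins. Of the named genes called, 17 lost their call in at least 1 fit without a sample, by limma voom or by DESeq2: C1QA, CP, SERPIND1, CXCL8, CD68, GDF9, ALDH1A2, CX3CR1, ZP3, MSR1, COL1A2, EMCN, INHA, HSD17B13, CIDEC, HSD17B1 (voom) and MASP1 (DESeq2). LHCGR, ATP6, COL12A1 and MT-ATP8 were called in at least 1 alternative. The cause of these differences was not tested. Genes under 1 CPM rested on a median of 12.2 reads per sample.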
